A study of Mus musculus with 9 samples.

Results

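The genes described here are 10 integrin subunits outside the platelet fibrinogen receptor, *Itga1*, *Itga2*, *Itga4*, *Itga5*, *Itga6*, *Itga9*, *Itgal*, *Itgav*, *Itgb1* and *Itgb2*. They were taken by gene symbol from the 56748 genes of the count table, and all 10 passed the filter on low counts in each comparison. RNA-seq was run on HSCs sorted from mouse bone marrow in 3 groups of 3 biological replicates. yHSCs came from mice of 6 to 10 weeks, and pre-aged HSCs (paHSCs) from mice of 14 to 16 months were divided by surface P-selectin (*Selp*) into Selp_low and Selp_high paHSCs. All 3 groups were C57BL/6 mice without a transgene or drug treatment named for these libraries, sorted as SLAM HSCs (Lin-Sca1+c-Kit+CD48-CD150+). The number of mice behind each library is not given in the sources used here, so the p-values measure the spread between these libraries.

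Integrins are adhesion receptors made of an alpha and a beta chain, and the pairing sets which ligand is bound. Their affinity is regulated from inside the cell by talin and kindlin proteins, which bind the tail of the beta chain. In bone marrow, integrins hold HSCs to fibronectin, laminin and cells that carry VCAM-1, and those with the *Itgb2* chain serve the adhesion of leukocytes.

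*Selp* was measured at 20.5, 30.0 and 23.2 CPM in the yHSC libraries, at 109, 29.3 and 93.3 CPM in the Selp_low paHSC libraries and at 652, 265 and 264 CPM in the Selp_high paHSC libraries. Levels are given as CPM, the count of a gene relative to the library total after TMM scaling, and libraries are always given in the order of replicates 1, 2 and 3. Depth was between 24866975 and 35375310 counts per library, and 3 libraries stood apart in the number of genes with a count, with 21094 in yHSC replicate 2, 21755 in Selp_high replicate 1 and 25192 in Selp_high replicate 3. The 10 genes with most counts took 44.8% of Selp_low replicate 2 and 20.9% of Selp_low replicate 3. All 8 HSC markers were detected in every library. Their summed level was 1012 to 2269 CPM in yHSCs, 790 to 1479 CPM in Selp_low paHSCs and 2111 to 3047 CPM in Selp_high paHSCs. All Selp_low libraries thus lay below all Selp_high libraries, and the part of this in the integrin levels was not tested. Markers of mature cells were detected as well. The summed level of 8 neutrophil markers was 12244 to 62721 CPM in yHSCs, 314 to 190413 CPM in Selp_low paHSCs and 1042 to 38230 CPM in Selp_high paHSCs, and 8 B-cell markers reached 5291 and 7559 CPM in Selp_low replicates 1 and 2 against 59.8 to 484 CPM in the other libraries. In bulk RNA, fewer cells of a type and less RNA per cell cannot be told apart.

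A gene was called changed when edgeR's quasi-likelihood test gave an adjusted p of 0.05 or less and the log2 fold change was 1 or more in either direction. By this rule 0 of the 10 integrin genes was called in any of the 3 comparisons, and the share of all genes called was 0% for Selp_high over Selp_low paHSCs, 0.165% for Selp_high paHSCs over yHSCs and 0% for Selp_low paHSCs over yHSCs. DESeq2 called 0, 1 and 1 of the 10, beside 2.28%, 2.78% and 2.95% of all genes it tested, and the gene was *Itga9*, lower in both comparisons with yHSCs, where 1.03% and 0.965% of all genes were called lower. limma's voom with quality weights called 0, 0 and 1, again *Itga9*, beside 0%, 1.37% and 2.11% of all genes. With a block for the replicate number, edgeR called 0 in each comparison, beside 0.0442%, 0% and 0%, and DESeq2 called 3, 2 and 1, beside 9.45%, 3.77% and 2.72%. The 3 were *Itga5* and *Itga6*, higher in Selp_high than in Selp_low paHSCs (4.33% of all genes), and *Itgal*, lower (5.12%). Against yHSCs they were *Itga6*, higher in Selp_high paHSCs (2.17%), and *Itga9*, lower in Selp_high (1.61%) and Selp_low paHSCs (1.14%). With group means taken out, paHSC libraries of the same replicate number correlated at 0.177 to 0.303, above the 0.1 taken as pairing. Those with yHSCs correlated at -0.417 to 0.0917. Libraries of unlike replicate number were not compared, so these values cannot show that libraries of the same number were paired. Whether the fractions came from the same mice is not given in the sources used here.

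In Selp_high over Selp_low paHSCs, 3 integrin genes were higher at an unadjusted p under 0.05 and 0 lower, beside 6.88% and 5.67% of all genes. These were *Itga5*, *Itga6* and *Itgb1*, and they were also the 3 genes whose Selp_high libraries all lay above all Selp_low libraries, which held for 10.3% of all genes. Every Selp_low library lay above every Selp_high library for *Itgav* alone, as for 10.6% of all genes. The median log2 fold change of the 10 genes was 0.62, and that of all genes tested was -0.11. Leaving out each library gave medians of the 10 genes from 0.13, without Selp_high replicate 2, to 0.80, without Selp_low replicate 2. In Selp_high paHSCs over yHSCs, *Itga6* was higher and *Itga9* lower at an unadjusted p under 0.05, beside 4.48% and 3.11% of all genes, and the median was 0.56 against -0.03. Leaving out each library in this comparison gave medians from 0.24, without Selp_high replicate 2, to 0.83, without Selp_high replicate 1. There, libraries of *Itga1*, *Itga5* and *Itga6* were without overlap higher, as for 8.52% of all genes, and those of *Itga9* lower, as for 5.28%. In Selp_low paHSCs over yHSCs, 0 genes were higher and 1, *Itga9*, was lower at an unadjusted p under 0.05, beside 7.11% and 4.17%, and the median was 0.08 for the 10 genes and for all genes. The libraries of these groups were without overlap lower for *Itga9*, as for 6.74% of all genes, and higher for 0 of the 10, beside 9.59%. The comparisons share groups and are not independent of each other.

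**Figure D1:**
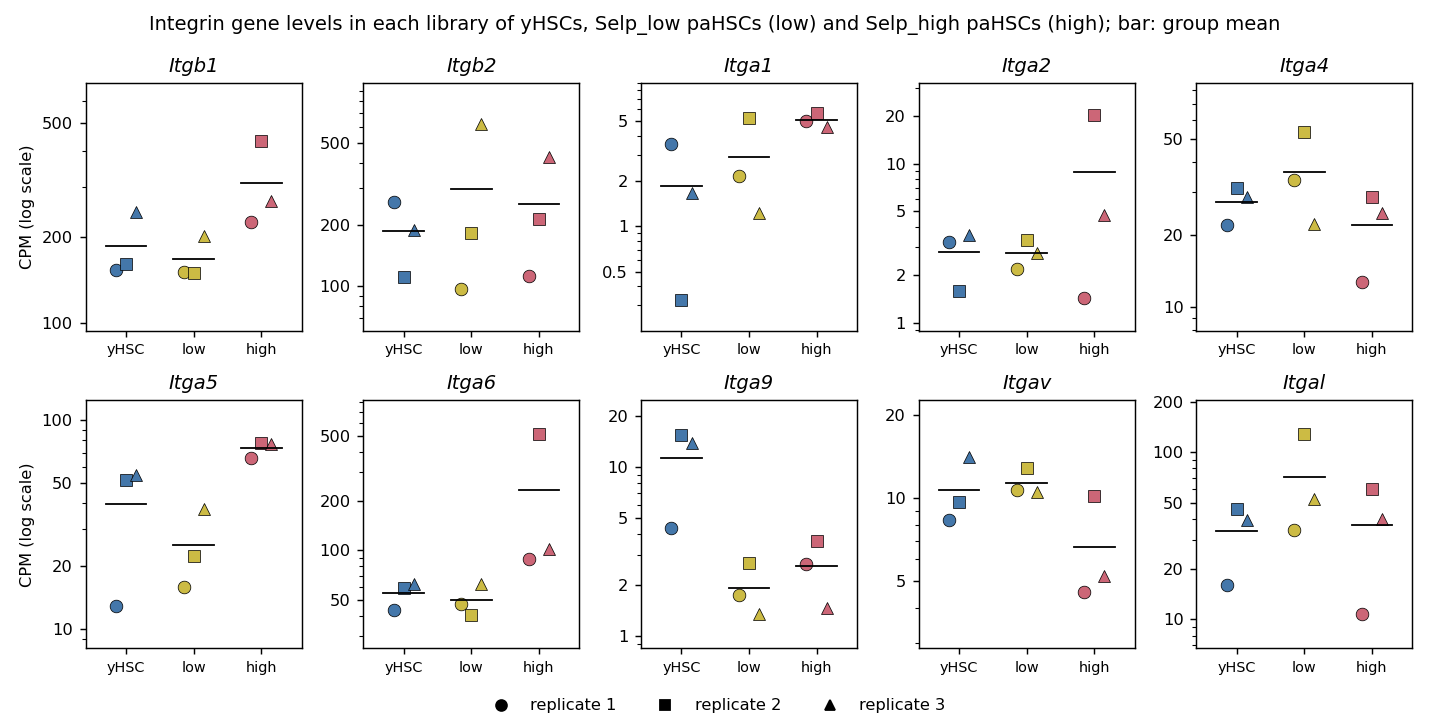
Each panel plots 1 integrin gene in CPM on a log axis, with 1 symbol per library in yHSCs, Selp_low paHSCs (low) and Selp_high paHSCs (high) and a bar at the group mean. *Itga5* lies between 65.9 and 77.8 CPM in the Selp_high libraries, *Itga9* lies at or above 4.33 CPM in yHSCs and at or below 3.67 CPM in all paHSC libraries, and *Itga6* has 1 library at 514 CPM.

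*Itgb1* (ENSMUSG00000025809, chr8:129412135-129459681, plus strand, mm39) encodes the beta chain shared by most receptors for matrix, and *Itga5* (ENSMUSG00000000555, chr15:103252713-103275190, minus strand) encodes the alpha chain that pairs with it to form the main fibronectin receptor. Since both chains of this receptor were without overlap higher in Selp_high than in Selp_low paHSCs, the 250 bases before the RefSeq start of each gene are shown, 5′ to 3′ on the strand of the gene, from chr15:103366792-103367041 (minus strand) for *Itga5* and chr8:128685404-128685653 (plus strand) for *Itgb1* in GRCm38.p6. This build differs from that of the counts. Capitals mark the GC box GGGCGG, the letters bound by Sp factors, or its reverse complement CCGCCC.
Itga5: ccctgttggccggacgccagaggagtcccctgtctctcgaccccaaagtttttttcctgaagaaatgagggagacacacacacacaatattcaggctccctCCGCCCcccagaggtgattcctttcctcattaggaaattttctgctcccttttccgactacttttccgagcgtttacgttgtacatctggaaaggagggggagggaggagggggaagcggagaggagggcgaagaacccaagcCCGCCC
Itgb1: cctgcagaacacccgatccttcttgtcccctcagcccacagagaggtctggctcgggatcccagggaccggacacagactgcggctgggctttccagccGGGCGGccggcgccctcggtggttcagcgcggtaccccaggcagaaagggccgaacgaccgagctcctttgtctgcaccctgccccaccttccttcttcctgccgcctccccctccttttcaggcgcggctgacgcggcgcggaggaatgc
The *Itga5* window held 2 GC boxes and the *Itgb1* window 1, and 32.74% of 32851 promoter windows of this length held at least 1. Neither window held, on either strand, the RUNX motif TGTGGT (14.05% of windows), the ETS motif CCGGAA (12.03%) or the motif of GATA factors, AGATAA (9.988%). RefSeq windows were at hand for 7 of the 10 genes.

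*Itga5* was measured at 12.9, 51.7 and 54.8 CPM in yHSCs, at 15.9, 22.3 and 37.7 CPM in Selp_low paHSCs and at 65.9, 77.8 and 77.0 CPM in Selp_high paHSCs. The Selp_high libraries lay close together and above the 6 others, while yHSC replicate 1 lay far below the other yHSC libraries. The log2 fold change of Selp_high over Selp_low paHSCs was 1.54 ± 0.35 (SE, n = 3 per group), with an adjusted p of 0.338 by edgeR and 0.0576 by DESeq2. Leaving out each library gave log2 fold changes between 1.30 and 1.94. With a block for the replicate number the adjusted p was 0.0919 by edgeR and 6.7e-05 by DESeq2, which then called the gene. Over 16 settings the adjusted p was between 6.7e-05 and 0.882. Over yHSCs the log2 fold change was 0.87 ± 0.49 in Selp_high paHSCs (adjusted p = 0.828, edgeR) and -0.60 ± 0.56 in Selp_low paHSCs (adjusted p = 0.811).

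*Itgb1* was measured at 152, 161 and 244 CPM in yHSCs, at 151, 150 and 202 CPM in Selp_low paHSCs and at 225, 435 and 267 CPM in Selp_high paHSCs. The 3 Selp_high libraries exceeded all Selp_low libraries, but yHSC replicate 3 lay within their range. Selp_high paHSCs were higher by a log2 fold change of 0.88 ± 0.33 over Selp_low paHSCs (adjusted p = 0.364, edgeR) and 0.72 ± 0.32 over yHSCs (adjusted p = 0.692), and leaving out each library gave 0.55 to 1.06 for the former. Of the 10 genes, *Itgb1* varied least, with the highest library 2.90 times the lowest. Selp_low paHSCs and yHSCs differed by -0.10 ± 0.26 on the log2 scale.

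**Figure D2:**
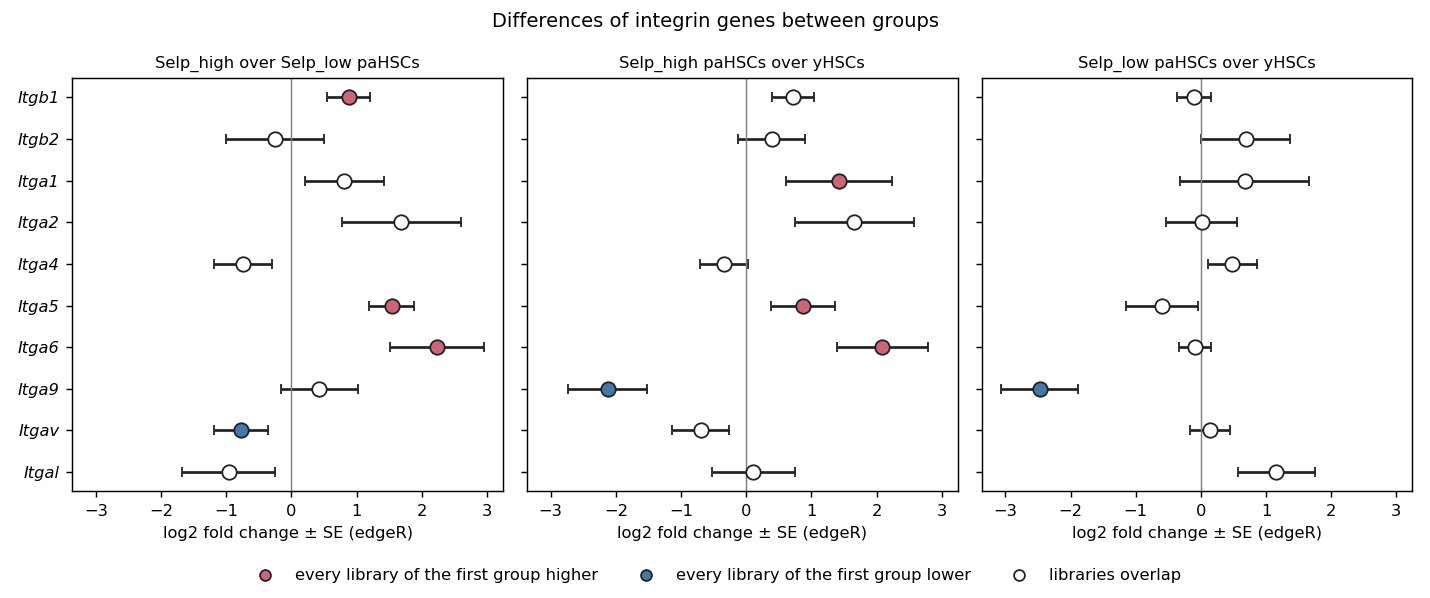
The log2 fold change and its SE from edgeR are plotted for each integrin gene in the 3 comparisons, with filled symbols where all libraries of the first group lay above (red) or below (blue) those of the second. *Itga5*, *Itga6* and *Itgb1* are filled red in Selp_high over Selp_low paHSCs, and *Itga9* is filled blue in both comparisons with yHSCs.

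*Itga4* (chr2:79085770-79163467, plus strand), which binds VCAM-1 and fibronectin with *Itgb1* and is used by HSCs in homing, was measured at 21.9, 31.5 and 28.6 CPM in yHSCs, at 33.8, 53.8 and 22.1 CPM in Selp_low paHSCs and at 12.8, 28.6 and 24.6 CPM in Selp_high paHSCs. The groups overlapped, and the log2 fold change of Selp_high over Selp_low paHSCs was -0.74 ± 0.45 (adjusted p = 0.543, edgeR). An antisense neighbour, *Cerkl*, had 19.8% as many counts, and reads of overlapping genes cannot be assigned with certainty because the strand setting of the counting is not given in the sources used here. *Itgav* (chr2:83554741-83637260, plus strand), the alpha chain of vitronectin receptors and of integrins that activate latent TGF-beta, was measured at 8.36, 9.67 and 14.1 CPM in yHSCs, at 10.7, 12.8 and 10.5 CPM in Selp_low paHSCs and at 4.57, 10.1 and 5.24 CPM in Selp_high paHSCs. All Selp_high libraries lay below all Selp_low libraries, the nearest pair being 10.1 and 10.5 CPM. Their log2 fold change was -0.78 ± 0.42 (adjusted p = 0.497, edgeR), and -0.87 with the replicate block.

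*Itga9* (ENSMUSG00000039115, chr9:118435758-118730071, plus strand) encodes an alpha chain that pairs with *Itgb1* to bind tenascin-C, osteopontin and VCAM-1. Its levels were 4.33, 15.5 and 13.9 CPM in yHSCs, 1.74, 2.70 and 1.35 CPM in Selp_low paHSCs and 2.66, 3.67 and 1.46 CPM in Selp_high paHSCs. Each of the 6 paHSC libraries lay below each yHSC library, and yHSC replicate 1 was the nearest. Of 5 later progenitor markers, *Flt3* and *Cd34* were lower in every paHSC library than in every yHSC library. *Mpo* was higher in Selp_high paHSCs, at 374 to 1196 CPM against 158 to 230 CPM in yHSCs. *Ctsg* was too, at 41.7 to 47.3 CPM against 6.14 to 12.0 CPM. In Selp_low paHSCs *Mpo* was at 62.8, 118 and 6217 CPM and *Ctsg* at 6.88, 30.6 and 500 CPM. *Cd48* was at 174, 309 and 22.7 CPM there, against 15.6 to 34.2 CPM in yHSCs. *Flt3* was measured at 207, 330.5 and 563 CPM in yHSCs and at 4.29 to 42.4 CPM in paHSCs, and *Cd34* at 516, 740.1 and 943 CPM in yHSCs and at 21.9 to 169 CPM in paHSCs, both lowest among yHSCs in replicate 1. The sum of all 5 such markers overlapped, at 975 to 1778 CPM in yHSCs, 455 to 6795 CPM in Selp_low and 530 to 1338 CPM in Selp_high paHSCs, and their part in the *Itga9* difference was not tested. Over yHSCs the log2 fold change was -2.47 ± 0.59 in Selp_low paHSCs, a 5.55-fold lower level, with an adjusted p of 0.332 by edgeR, 0.00663 by DESeq2 and 0.0497 by voom, and in 16 alternative settings the adjusted p was between 0.00565 and 0.981. In Selp_high paHSCs the log2 fold change was -2.12 ± 0.60, a 4.36-fold lower level, with an adjusted p of 0.357 by edgeR and 0.0233 by DESeq2 and a range of 0.0233 to 0.9999 over 17 settings. Leaving out each library gave -2.93 to -2.20 in the former and -2.50 to -1.78 in the latter. Between the paHSC fractions the difference was 0.42 ± 0.59 (adjusted p = 0.802, edgeR). The lowest library held 36 *Itga9* counts, and the antisense neighbours *Gm10157* and *Gm2415* had 25.4% and 13.3% as many counts as *Itga9* in all.

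*Itga6* (ENSMUSG00000027111, chr2:71575960-71688760, plus strand) encodes the alpha chain of laminin receptors, which is also a surface marker of stem and progenitor cells and is present on platelets. Its levels were 43.0, 58.8 and 62.6 CPM in yHSCs, 47.2, 40.4 and 62.5 CPM in Selp_low paHSCs and 88.9, 514 and 102 CPM in Selp_high paHSCs. All Selp_high libraries lay above the 6 others, and Selp_high replicate 2 lay far above the rest. The log2 fold change was 2.23 ± 0.72 over Selp_low paHSCs, 4.69-fold, and 2.09 ± 0.70 over yHSCs, 4.26-fold, with adjusted p of 0.338 and 0.468 by edgeR and 0.0647 and 0.0615 by DESeq2. Without Selp_high replicate 2 the log2 fold changes were 0.92 and 0.76. With the replicate block the adjusted p over Selp_low paHSCs was 0.269 by edgeR and 0.0175 by DESeq2, which then called it, and the adjusted p was between 0.0175 and 0.882 over 16 settings. Over yHSCs the range was 0.00844, without a filter on low counts, to 0.9999. Selp_low paHSCs and yHSCs differed by -0.09 ± 0.24 on the log2 scale.

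In the Selp_high libraries the sum of megakaryocyte and platelet markers ranked as *Itga6* did, but in replicate 3 it was mostly *Pf4*, at 2053 CPM. The summed level of 8 such markers was 814, 5593 and 2448 CPM in Selp_high paHSCs, 88.0, 1321 and 1595 CPM in Selp_low paHSCs and 69.2, 77.7 and 95.4 CPM in yHSCs, where *Gp1bb* was at 0 in all libraries. In Selp_low replicates 2 and 3, with 40.4 and 62.5 CPM of *Itga6*, the sum was mostly *Pf4*, at 1143 and 1438 CPM against 78.2 CPM in Selp_high replicate 1. *Ppbp*, *Gp1ba*, *Gp5*, *Gp6*, *Gp9* and *Tubb1* were lower in both of these libraries than in Selp_high replicate 1, with *Ppbp* at 44.1 and 25.4 against 306 CPM and *Tubb1* at 10.6 and 1.61 against 207 CPM. Selp_high replicate 3, with 102 CPM of *Itga6*, was also below Selp_high replicate 1 in *Ppbp* (84.3 CPM), *Gp6* (3.06 CPM) and *Tubb1* (14.7 CPM). It was above that library in *Pf4*, *Gp1ba*, *Gp5*, *Gp9* and *Gp1bb* (0.515 against 0.0258 CPM). The part of these markers in the *Itga6* difference was not tested.

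The collagen-binding alpha chains *Itga1* (chr13:115089632-115238500, minus strand) and *Itga2* (chr13:114969617-115068636, minus strand), neighbours that both pair with *Itgb1*, had the lowest CPM of the 10 genes in yHSCs. *Itga1* was measured at 3.55, 0.324 and 1.67 CPM in yHSCs, at 2.16, 5.27 and 1.24 CPM in Selp_low paHSCs and at 5.04, 5.64 and 4.58 CPM in Selp_high paHSCs. The Selp_high libraries lay close together and above all yHSC libraries, but Selp_low replicate 2 lay among them, and the log2 fold change was 1.423 ± 0.817 over yHSCs (adjusted p = 0.833, edgeR) and 0.81 ± 0.61 over Selp_low paHSCs (adjusted p = 0.621). yHSC replicate 2, at 14 counts, set the width of this gene's range, with the highest library 17.4 times the lowest. *Pelo*, which lies within *Itga1* on the same strand, had 34.5% as many counts, and antisense *Gm10734* had 17.0%.

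*Itga2*, the alpha chain of a platelet collagen receptor, was measured at 3.22, 1.58 and 3.55 CPM in yHSCs, at 2.16, 3.29 and 2.73 CPM in Selp_low paHSCs and at 1.421, 20.2 and 4.75 CPM in Selp_high paHSCs. Only Selp_high replicate 2 stood well above the other 8 libraries, and Selp_high replicate 1 was the lowest of all 9. Selp_high paHSCs had a log2 fold change of 1.69 ± 0.91 over Selp_low paHSCs and 1.66 ± 0.91 over yHSCs (adjusted p = 0.496 and 0.825, edgeR). Without Selp_high replicate 2 these became 0.17 and 0.11.

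*Itgb2* (ENSMUSG00000000290, chr10:77366086-77401542, plus strand) encodes the beta chain of the leukocyte integrins, and *Itgal* (chr7:126895432-126934310, plus strand) encodes the alpha chain that pairs with it to bind ICAM proteins. *Itgb2* was measured at 257, 111 and 188 CPM in yHSCs, at 96.9, 182 and 617 CPM in Selp_low paHSCs and at 112, 213 and 427 CPM in Selp_high paHSCs. The groups overlapped widely, and the log2 fold change of Selp_high over Selp_low paHSCs was -0.25 ± 0.76 (adjusted p = 0.915, edgeR), with 0.84 when Selp_low replicate 3 and 0.09 when Selp_high replicate 1 was left out. In each group the library highest in *Itgb2* was also the highest in neutrophil markers, with 62721, 190413 and 38230 CPM of them in yHSC replicate 1, Selp_low replicate 3 and Selp_high replicate 3. At the other end, Selp_low replicate 2 held 182 CPM of *Itgb2* with 314 CPM of neutrophil markers. The part of these markers in the level of *Itgb2* was not tested.

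*Itgal* was measured at 16.01, 45.7 and 39.5 CPM in yHSCs, at 34.1, 128 and 52.4 CPM in Selp_low paHSCs and at 10.7, 59.9 and 39.7 CPM in Selp_high paHSCs. The fractions overlapped, but the Selp_high library was lower than the Selp_low library of the same replicate number in 3 of 3 pairs. Selp_high over Selp_low paHSCs had a log2 fold change of -0.96 ± 0.71 (adjusted p = 0.612, edgeR; 0.609, DESeq2). With the replicate block it was -1.06, with an adjusted p of 0.171 by edgeR and 0.0234 by DESeq2, which then called it, and over 16 settings the adjusted p was between 0.0234 and 0.986. In each group the library highest in *Itgal* was replicate 2, which was also the highest of its group in B-cell markers, at 285, 7559 and 484 CPM. Selp_low replicate 1 held 5291 CPM of B-cell markers with 34.1 CPM of *Itgal*, the lowest of its group. In Selp_low paHSCs the sum of 8 T and NK cell markers was 241, 763 and 632 CPM, ranked as *Itgal* was. It was 152, 126 and 149 CPM in Selp_high paHSCs and 89.5, 51.7 and 64.5 CPM in yHSCs, lowest in replicate 2 of both. The part of B-cell, T and NK cell markers in the level of *Itgal* was not tested. Selp_low replicate 2 also carried 99023 CPM of 6 plasma cell markers. The difference of Selp_low paHSCs over yHSCs was 1.16 ± 0.59 (adjusted p = 0.527, edgeR).

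**Figure D3:**
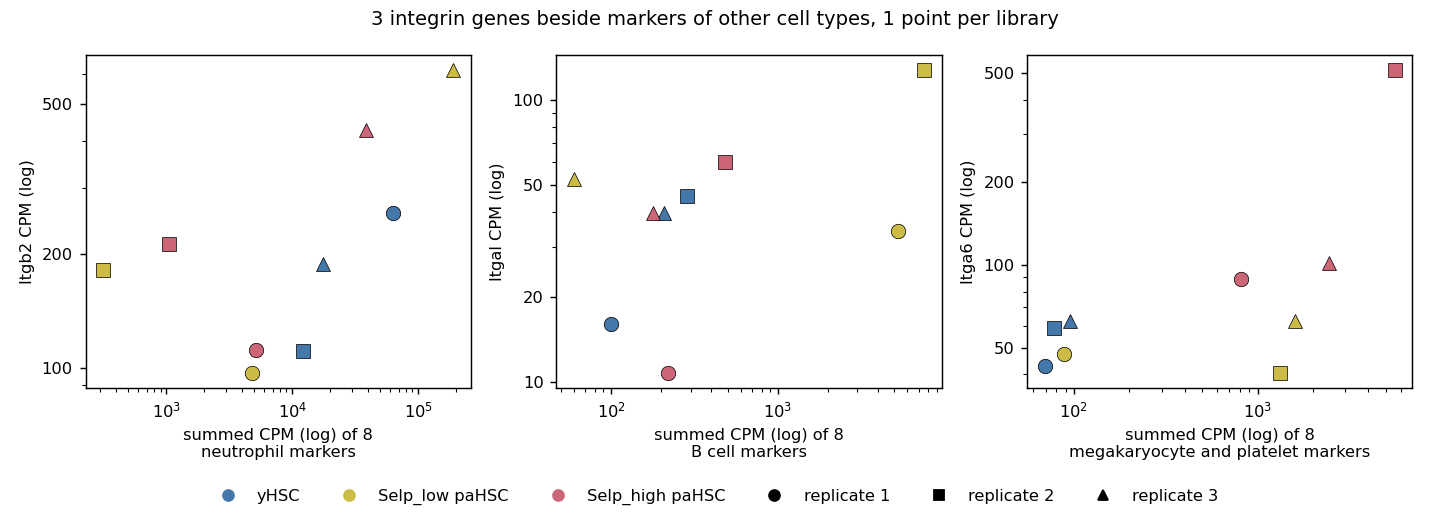
*Itgb2*, *Itgal* and *Itga6* in CPM are plotted on log axes against the summed CPM of neutrophil, B-cell, and megakaryocyte and platelet markers, with 1 point per library. Selp_low replicate 3 is at the upper right for *Itgb2* with neutrophil markers, Selp_low replicate 2 for *Itgal* with B-cell markers and Selp_high replicate 2 for *Itga6* with platelet markers.

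Levels between genes were compared as CPM per kilobase of exon, using the gene length in the authors' table. In yHSCs *Itgb2* (60.7 ± 23.9, SD, n = 3) and *Itgb1* (45.5 ± 12.5) came first and overlapped, followed by *Itga5* (8.07 ± 4.73), *Itga6* (5.995 ± 1.14), *Itgal* (5.14 ± 2.38), *Itga4* (1.95 ± 0.351), *Itga9* (1.46 ± 0.786), *Itgav* (0.998 ± 0.282), *Itga2* (0.390 ± 0.148) and *Itga1* (0.0994 ± 0.0872). Neighbours in this order had no common range at 4 steps, from *Itgb1* to *Itga5*, from *Itgal* to *Itga4*, from *Itgav* to *Itga2* and from *Itga2* to *Itga1*. In Selp_low paHSCs *Itgal* came next after the beta chains at 10.9 ± 7.56 and *Itga9* stood above *Itga1* alone at 0.251 ± 0.0905 CPM per kilobase. In Selp_high paHSCs *Itga6* led the alpha chains at 25.7 ± 26.4, after *Itgb2* (82.1 ± 52.8) and *Itgb1* (75.7 ± 27.1), and the only step without overlap was from *Itga5* (14.9 ± 1.35) to *Itgal* (5.598 ± 3.76).

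**Figure D4:**
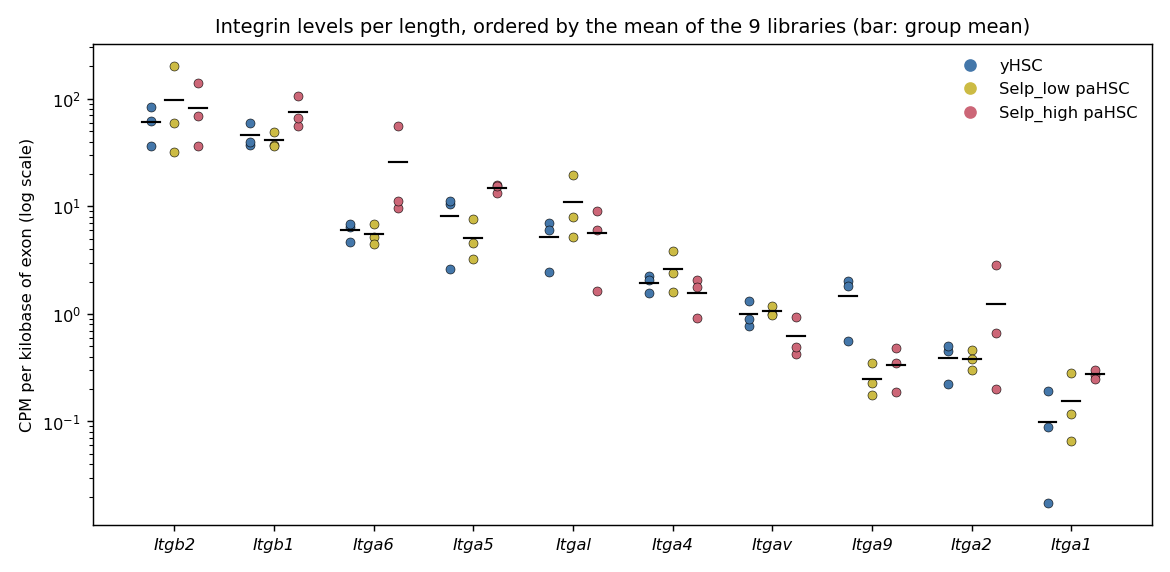
CPM per kilobase of exon on a log axis is plotted for each integrin gene in the order of its mean over 9 libraries, with a point per library and a bar at the group mean. *Itgb2* and *Itgb1* lie above the alpha chains in the means of all 3 groups, and *Itga1* lies lowest.

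For the 3 genes with the widest range over the 9 libraries, the genes with the most similar pattern were sought among 15767 protein-coding genes by the mean absolute difference of centred log2 CPM. *Itga6* was closest to *Ubash3b* (0.23), *Inafm2* (0.24) and *Mylk* (0.25), where the median of all genes was 0.92. *Ubash3b* was measured at 47.2, 200 and 67.0 CPM in Selp_high paHSCs and at 20.4 to 41.2 CPM in the 6 other libraries. *Mylk*, a myosin light chain kinase, was measured at 28.1, 79.5 and 19.1 CPM in Selp_high paHSCs and at 7.38 to 9.21 CPM elsewhere. *Itga2* was closest to *Nlk* (0.34), *Prkab2* (0.37) and *Slc23a1* (0.37), all of which were highest in Selp_high replicate 2, at 27.7, 68.4 and 3.18 CPM. *Itga1* was closest to *Rspo4*, *Cutal* and *Ido1* (0.38 each, against a median of 1.13), whose levels were 1.68 CPM or less in every library and 0 in yHSC replicate 2.

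A list of 77 other genes of integrin adhesion, grouped by role, was read beside the 10 genes. edgeR called 0 of those tested in the 3 comparisons. For Selp_high over Selp_low paHSCs, 12 of 75 (16%) were higher and 5 (6.67%) lower at an unadjusted p under 0.05, beside 6.88% and 5.67% of all genes, and the median log2 fold change was 0.01. Other integrin subunits held 5 of the 12, while ligands and actin linkers held 2 each. The 3 with the smallest p were *Ptk2*, the focal adhesion kinase, *Lama5*, a laminin chain bound by receptors with *Itga6*, and *Cd151*, a tetraspanin that associates with laminin-binding integrins. *Ptk2* was measured at 20.9, 39.9 and 32.0 CPM in Selp_high and 14.2, 7.18 and 11.7 CPM in Selp_low paHSCs, with a log2 fold change of 1.48 ± 0.39. *Lama5* was measured at 3.57, 4.83 and 2.32 CPM against 1.02, 0.856 and 1.01 CPM (1.88 ± 0.54), and *Cd151* at 8.47, 47.2 and 13.7 CPM against 5.47, 4.87 and 2.88 CPM (2.38 ± 0.70). The adjusted p of each was 0.338 by edgeR. DESeq2 called 2 higher, *Cd151* (adjusted p = 0.0418) and *Itgb5* (0.00303), and 1 lower, *Lpxn* (0.0471), a paxillin relative, where 0.748% and 1.53% of all genes were called. *Itgb5* and *Lpxn* overlapped between the fractions, since *Itgb5* was at 4.67 CPM in Selp_high replicate 3 and *Lpxn* at 0.787 CPM in Selp_low replicate 3. *Lpxn* was at 100.2 and 107 CPM in Selp_low replicates 1 and 2, the libraries with 5291 and 7559 CPM of B-cell markers, where replicate 3 had 59.8 CPM of them, and the part of these markers was not tested.

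For Selp_high paHSCs over yHSCs, 11 of 73 (15.1%) list genes were higher and 3 (4.11%) lower at an unadjusted p under 0.05, beside 4.48% and 3.11% of all genes, with a median of 0.16. *Itga2b* and *Itgb3*, the chains of the platelet fibrinogen receptor, had the smallest p, with log2 fold changes of 3.79 ± 0.58 and 3.44 ± 0.54 and adjusted p of 0.0888 and 0.0918 by edgeR and 1.4e-09 and 3.7e-08 by DESeq2. *Cd9*, a tetraspanin of platelets and stem cells, followed at 2.17 ± 0.53 (adjusted p = 0.259, edgeR; 0.00939, DESeq2), with 404, 1090 and 572 CPM in Selp_high paHSCs and 243, 95.6 and 107 CPM in yHSCs. DESeq2 called these 3 and *Rap1b*, a small GTPase that activates integrins (adjusted p = 0.0451), where 1.75% of all genes were called higher. For Selp_low paHSCs over yHSCs, 7 of 74 (9.46%) were higher and 3 (4.05%) lower, beside 7.11% and 4.17%, with a median of 0.02. The 3 with the smallest p were all lower, namely *Itgad* (-3.03 ± 0.60), an alpha chain that pairs with *Itgb2*, *Itgb5* (-3.75 ± 0.80), a partner of *Itgav*, and *Col4a1* (-2.10 ± 0.46), a basement membrane collagen. Each had an adjusted p of 0.332 by edgeR, and DESeq2 gave 0.000323, 0.000221 and 0.00865. *Itgb5* was measured at 25.5, 70.0 and 89.2 CPM in yHSCs, at 3.74, 8.10 and 1.199 CPM in Selp_low paHSCs and at 50.9, 293 and 4.67 CPM in Selp_high paHSCs. DESeq2 called *Itgb3* higher here (adjusted p = 0.0225), as it did 1.99% of all genes. Beside *Col4a1*, the summed level of 5 endothelial markers was 54.9 to 88.9 CPM in yHSCs and 21.4 to 59.1 CPM in Selp_low paHSCs, that of 6 stromal markers was 16.6 to 102 CPM and 5.17 to 47.5 CPM, and their part was not tested. The macrophage marker *Csf1r* was at 7.11, 27.3 and 43.9 CPM in yHSCs and at 2.65, 4.81 and 4.23 CPM in Selp_low paHSCs. In Selp_high paHSCs it was at 7.80, 36.9 and 16.6 CPM. *C1qa* was at 8.77, 20.5 and 35.5 CPM, at 8.13, 7.18 and 2.02 CPM and at 4.44, 52.1 and 6.39 CPM in these groups. In Selp_high paHSCs both were lowest in replicate 1, where *Itgb5* was at 50.9 CPM against 4.67 CPM in replicate 3. Both were highest in replicate 2, as was *Itgb5*. *Itgad* was highest there too, at 0.801, 10.3 and 0.258 CPM in the Selp_high libraries. *Ly6c2*, *Vcam1* and *Ccr2* were higher in some Selp_low libraries than in any yHSC library, reaching 1988, 285 and 31.8 CPM. Their highest yHSC levels were 232, 145 and 12.6 CPM. The sum of 8 monocyte and macrophage markers overlapped, at 326 to 498 CPM in yHSCs, 199 to 2299 CPM in Selp_low and 215 to 604 CPM in Selp_high paHSCs. The part of these markers in *Itgad* and *Itgb5* was not tested. *Itgb5* and *Lpxn* in the comparison of the fractions and *Rap1b* were named after their values were seen.

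**Figure D5:**
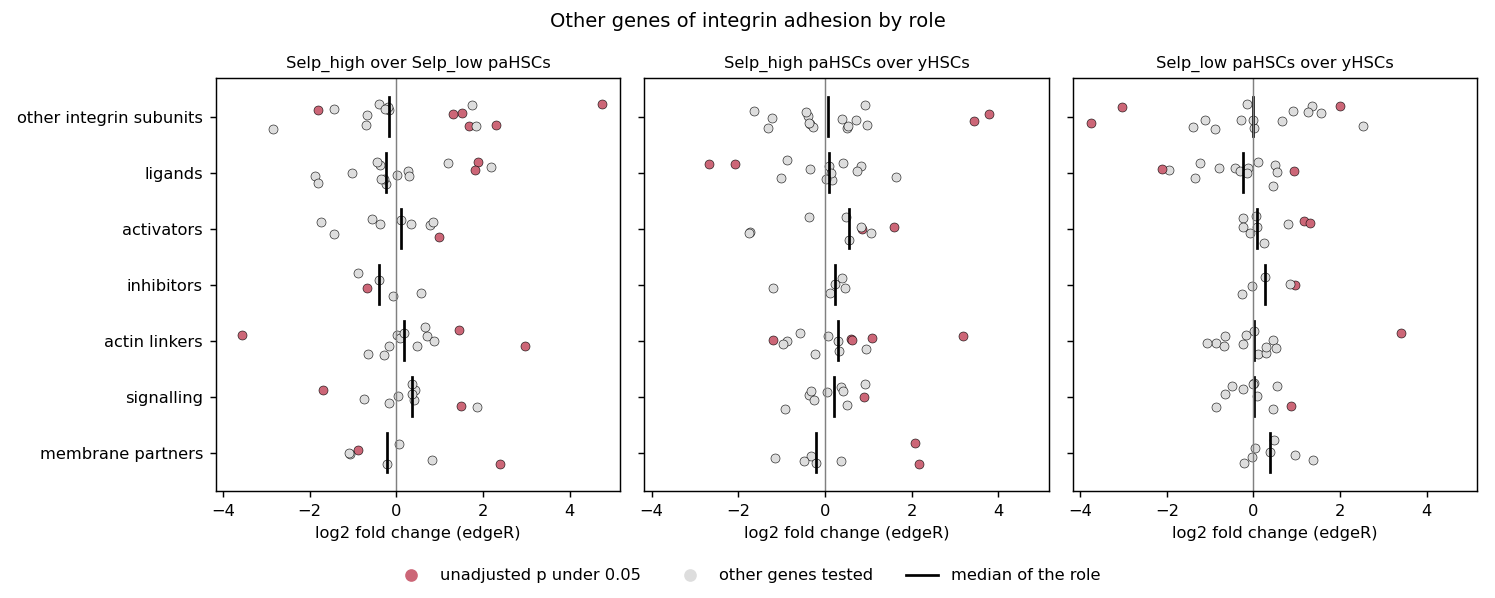
The log2 fold change from edgeR is plotted for each gene of the integrin adhesion list by role in the 3 comparisons, with red points at an unadjusted p under 0.05 and a black line at the median of the role. Red points lie on both sides of 0 in each comparison, with 12 higher and 5 lower in Selp_high over Selp_low paHSCs.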

How the data were processed

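The authors made libraries from total RNA of sorted HSCs with a kit for ultra-low input, trimmed reads with fastp and, per the submitters' processing notes, used CASAVA 1.8, HISAT2 2.2.1, featureCounts 2.0.6, DESeq2 1.42.0 and the build mm39. The table they deposited gives raw counts of reads by gene, not normalized, beside gene lengths, positions and names, and 0 of its sample columns went unused. For the annotation release, the strand setting and multi-mapping reads, the settings were not given in any source used here.

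The tools were edgeR 4.0.16 and DESeq2 1.42.0, with limma 3.58.1, under R 4.3.3, and matplotlib 3.10.9 under Python 3.11.15 for the plots. Pairs of groups were fitted alone, as in the study, with TMM factors, filterByExpr by group, the quasi-likelihood test (legacy setting) and Benjamini-Hochberg adjustment over all genes tested. CPM used TMM factors of all 9 libraries, and log2 CPM a prior count of 2. A count of 0 was taken to allow 3 counts, which covers counting error only. The fits of edgeR, DESeq2 and voom without a replicate block were tested on simulated counts, and the fits with a block and the other steps were not.

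The integrin genes and lists were chosen with earlier results of these data known. Named were all 10 genes, the genes of the adhesion list that were called or had the 3 smallest p per comparison, the 3 nearest genes by pattern and *Selp*. Residuals of libraries with the same replicate number correlated at 0.177, 0.277 and 0.303 between the paHSC fractions, all above the 0.1 taken as pairing, and at -0.417 to 0.0917 with yHSCs. Sequences are RefSeq's.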

Additional observations from a re-analysis of the deposited data

How the results depend on the processing

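Settings tried were RLE and upper-quartile factors, no filter and a minimum mean of 10 counts, voom quality weights, DESeq2, the newer quasi-likelihood setting, 1 fit of 9 libraries, a replicate block, each library left out and, against yHSCs, yHSC replicate 2 and Selp_high replicate 1 left out together. Of the alternatives for single genes, 454 kept direction and side of the threshold, 10 newly passed it and 26 reversed. For Selp_high over Selp_low paHSCs the 0 genes called became 3 with the replicate block in DESeq2 (*Itga5*, *Itga6*, *Itgal*), and the 3 at an unadjusted p under 0.05 became 5 with the replicate block in edgeR and 5 in DESeq2. For Selp_high paHSCs over yHSCs the 0 called became 1 without a filter (*Itga6*), 1 by DESeq2 (*Itga9*) and 2 by DESeq2 with the block, and the 2 at an unadjusted p under 0.05 became 4 without a filter, by voom and by DESeq2 with the block, and 1 without the 2 libraries together. For Selp_low paHSCs over yHSCs the 0 called became 1 (*Itga9*) by DESeq2, voom and DESeq2 with the block, and the 1 at an unadjusted p under 0.05 became 2 without a filter, by voom and with either block. With yHSCs the libraries share only a replicate number, and the cause of these shifts was not tested. Leaving out each library gave 0 called in every comparison, and 2 to 4, 2 to 4 and 1 to 2 at an unadjusted p under 0.05.

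Some log2 fold changes reversed. For Selp_high over Selp_low paHSCs, *Itgb2* became 0.98 by voom and ranged from -0.88 to 0.84 with libraries left out. For Selp_high paHSCs over yHSCs, *Itgal* became -0.086 by voom, -0.088 with the edgeR block and -0.10 with the DESeq2 block, ranging from -0.47 to 0.53 with libraries left out, *Itgb2* ranged from -0.19 to 0.75, and *Itga4* became 0.073 without the 2 libraries together. For Selp_low paHSCs over yHSCs, *Itga2* became -0.013 with upper-quartile factors, -0.076 without a filter, -0.021 by DESeq2, -0.0047 by voom and -0.028 in the fit of 9 libraries, and *Itgb2* became -0.033 by voom. With libraries left out there, *Itga1* ranged from -0.11 to 1.54, *Itga2* from -0.29 to 0.21, *Itga6* from -0.33 to 0.016, *Itgav* from -0.058 to 0.38, *Itgb1* from -0.31 to 0.14 and *Itgb2* from -0.41 to 1.10. The cause was not tested. *Itga1*, *Itga2* and *Itga9*, with 14, 50 and 36 counts in their lowest library, had the lowest such counts of the 10 genes. The SE did not follow these counts throughout. For Selp_high over Selp_low paHSCs it was 0.61, 0.91 and 0.59 for these genes, and 0.76 for *Itgb2*.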
